A study of Mus musculus with 12 samples.

Results

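The 40 genes described here encode the enzymes, carriers and regulators of mitochondrial and peroxisomal fatty acid oxidation. They were taken by symbol from a count table of 24452 genes measured in mouse kidney cortex, and all 40 were in the table and among the 14618 genes that passed the filter on low counts. By the main site of the encoded protein, 19 are mitochondrial, 15 are peroxisomal, and 6 are shared between compartments or cytosolic (Acsl1, Ech1, Eci2, Crat, Acot1 and Acot12).

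Long-chain fatty acids are joined to coenzyme A, carried into mitochondria by the carnitine shuttle, and shortened there in a repeated cycle of dehydrogenation, hydration, a second dehydrogenation and thiolysis, with electrons passed on through the electron transfer flavoprotein. Peroxisomes shorten very long-chain and branched fatty acids by a parallel set of enzymes that begins with an oxidase, and hand the products on to mitochondria. The proximal tubule of the kidney, a segment rich in both organelles, relies on fatty acids as a main fuel, and the nuclear receptor PPARA is a known activator of many genes of both routes.

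The study asked how captopril, an inhibitor of angiotensin converting enzyme, affects the kidney in chronic glomerulonephritis (GN). All mice are labelled adult male C57BL/6, and mRNA of kidney cortex was sequenced in 12 libraries, 3 per group. GN_captopril and GN_water mice received 10 mg of horse spleen apoferritin 5 times weekly and 100 µg of lipopolysaccharide 3 times weekly, by intraperitoneal injection for 6 weeks, and were treated with captopril or water; Control_captopril and Control_water mice received saline injections on the same schedule, with captopril or water. Tissue was taken at 9 weeks. The dose of captopril is not given in the sources used here, and each library's title holds a pair of numbers whose meaning is not stated. It is not given whether a library came from 1 animal or several, so p-values measure the spread between libraries, which may be partly technical.

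The libraries hold 14173432 to 22842783 assigned reads. The sex label did not match the RNA of every group: in normalised read counts scaled to a common library size (CPM), the sum of 4 Y-linked genes was 124 to 129 CPM in GN_captopril and 121 to 144 CPM in Control_water libraries, but at most 0.0458 CPM in GN_water and 0.101 CPM in Control_captopril libraries. Xist, the transcript of the inactive X chromosome, showed the opposite, at 181 to 212 CPM in GN_water and 314 to 375 CPM in Control_captopril libraries and at most 0.182 CPM in the others. Ren1, which encodes renin and is known to rise under inhibitors of angiotensin converting enzyme, was at 438 to 691 CPM in GN_captopril libraries, against 20.7 to 30.2 CPM in GN_water libraries, but among controls it was at 63.4 to 82.8 CPM in libraries labelled Control_captopril, against 1083 to 1794 CPM in libraries labelled Control_water. The groups are named here as labelled. The 2 comparisons between groups with the same sex-linked transcripts, GN_water against Control_captopril and GN_captopril against Control_water, share no library, and their average (the GN average) is balanced for these transcripts and for the treatment label.

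In the GN average, 33 of the 40 genes fell and none rose, with a median log2 fold change of -0.27, against -0.01 over all genes tested. Of all genes, 14.6% were called lower and 16.3% higher by the same test, edgeR's quasi-likelihood test with Benjamini-Hochberg adjustment below 0.05 over all genes tested. The members, and the gene lists used below, were chosen with earlier results of these data known. Their shares set against those of all genes, here and below, are therefore not independent evidence. At an unadjusted p under 0.05 the count of higher members was also 0, and limma and DESeq2 found 0. The falls were modest: the called genes lay between -0.13 for Etfa and -0.68 for Acaa1b. By compartment, 14 of 19 mitochondrial, 14 of 15 peroxisomal and 5 of 6 shared or cytosolic genes fell, with medians of -0.25, -0.29 and -0.28; the difference between compartments was not tested. The 7 genes not called were Acadm, Acsm2, Acsm3, Acaa2, Eci2, Crot and Pdk4. In bulk tissue, fewer cells of a type and less RNA per cell cannot be told apart, and markers of other cell types moved with the disease. The summed level of 20 markers of proximal tubule segments 1 and 2 was 18790 to 20460 CPM in GN_water libraries, against 24650 to 26680 CPM in Control_captopril libraries, and 24150 to 26210 CPM in GN_captopril, against 25720 to 28340 CPM in Control_water libraries. In the GN average 10 of these 20 markers fell, whereas of 14 markers of proximal tubule segment 3 only 1 fell and 4 rose, with a median log2 fold change of 0.04. The sum of 28 leukocyte markers was 701 to 1350 CPM in GN_captopril and 1553 to 2497 CPM in GN_water libraries, against 192 to 281 CPM in Control_captopril and 230 to 241 CPM in Control_water libraries, and 27 of the 28 rose. The sums of adipocyte markers (107 to 687 CPM in GN, against 180 to 353 CPM in control libraries) and of hepatocyte markers (389 to 544 CPM in GN, against 429 to 650 CPM in control libraries) overlapped between GN and control. No leukocyte or proximal tubule marker was at 0 in any library, and the part of cell composition in the result was not tested.

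**Figure D1:**
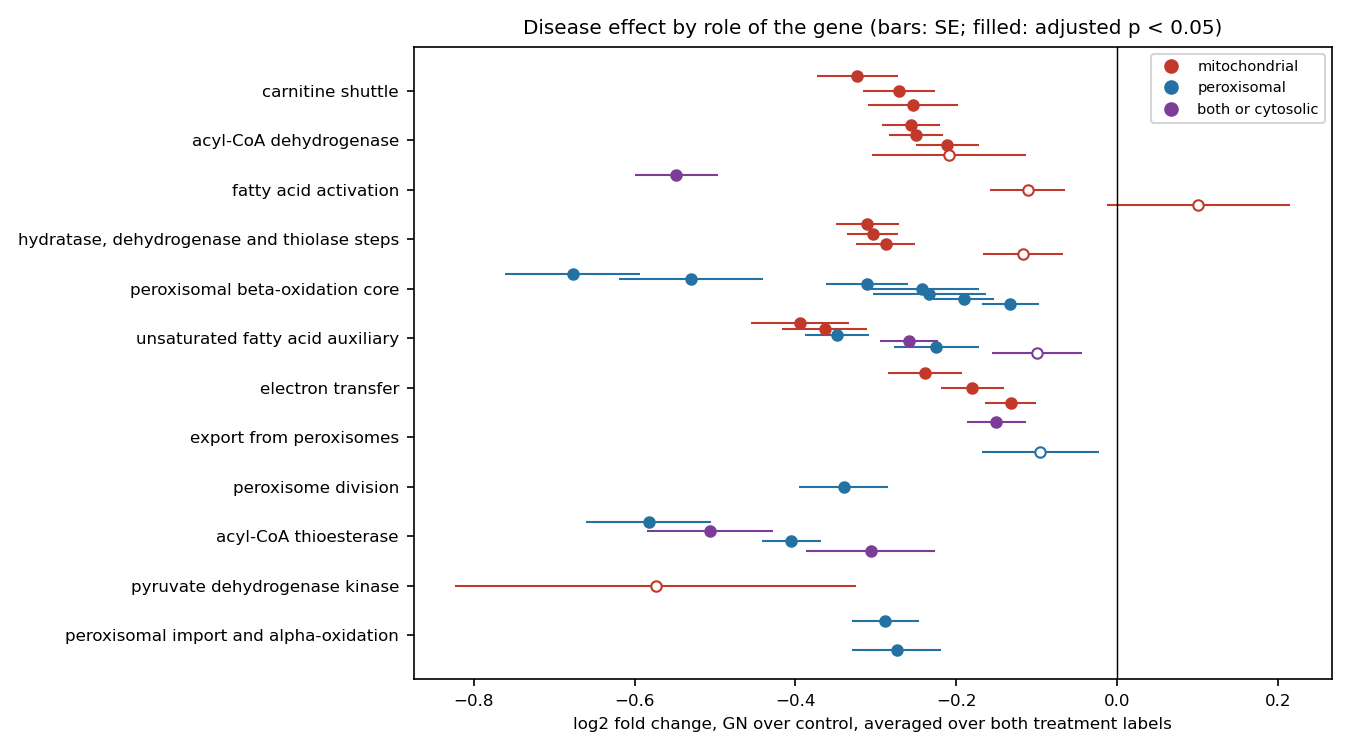
Log2 fold change of each gene in the GN average, with GN over control on the x axis and the genes grouped by role down the page; points are estimates, bars are standard errors, colours give the compartment and filled points have an adjusted p below 0.05. Acsm3 alone lies right of 0, at 0.10, and all 4 thioesterases and all 7 genes of the peroxisomal core are filled and left of 0.

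The carnitine shuttle moves acyl groups into mitochondria. Cpt1a, its rate-limiting acyltransferase on the outer membrane, was at 620, 644 and 577 CPM in the 3 GN_captopril libraries and at 350, 358 and 328 CPM in the GN_water libraries, against 538, 532 and 581 CPM in Control_captopril and 600, 530 and 552 CPM in Control_water libraries. The GN_water libraries were below all others, and the remaining groups overlapped. In the GN average Cpt1a fell by 0.27 ± 0.05 on the log2 scale (SE, adjusted p = 0.00059). Cpt2, which rebuilds acyl-CoA on the inner membrane, was at 180, 201 and 184 CPM in GN_captopril and 136, 127 and 116 CPM in GN_water libraries, against 187, 196 and 202 CPM in Control_captopril and 203, 176 and 194 CPM in Control_water libraries. Here too GN_water alone stood apart, and the GN average was -0.32 ± 0.05 (adjusted p = 0.00035). Slc25a20, the carrier that exchanges acylcarnitine for carnitine, fell by 0.25 ± 0.06 in the GN average (adjusted p = 0.0041). It changed by -0.57 in GN_water against Control_captopril, and by 0.07 in GN_captopril against Control_water, where it was not called.

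The acyl-CoA dehydrogenases catalyse the first step of the mitochondrial cycle for different chain lengths. Acadvl, Acads and Acadl, the very long-, short- and long-chain enzymes, fell by 0.26, 0.25 and 0.21 on the log2 scale in the GN average. Acadm, the medium-chain enzyme, was at 948, 929 and 994 CPM in GN_captopril and 1242, 1101 and 1342 CPM in GN_water libraries, against 1800, 1109 and 1385 CPM in Control_captopril and 1165, 1144 and 984 CPM in Control_water libraries. The spread among Control_captopril libraries was wider than any difference between group means, and the change of -0.21 ± 0.10 was not called (adjusted p = 0.12).

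Hadha and Hadhb form the trifunctional protein, which carries out the remaining steps on long chains. Hadha was at 212, 190 and 202 CPM in GN_captopril and 264, 264 and 252 CPM in GN_water libraries, against 370, 338 and 350 CPM in Control_captopril and 233, 230 and 221 CPM in Control_water libraries. Within each marker-matched pair the GN libraries were below all control libraries, and the GN average fell by 0.31 ± 0.04 on the log2 scale (adjusted p = 6.3e-05). Hadhb and Hadh, the short-chain hydroxyacyl-CoA dehydrogenase, fell by 0.29 and 0.30, whereas the thiolase Acaa2 changed by -0.12 ± 0.05 and was not called (adjusted p = 0.094). The electron transfer genes Etfdh, Etfb and Etfa fell by 0.24, 0.18 and 0.13.

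Auxiliary enzymes prepare unsaturated fatty acids for the cycle. Eci1, the mitochondrial enoyl-CoA isomerase, had the largest called fall of the mitochondrial genes: it was at 77.4, 98.1 and 97.9 CPM in GN_captopril and 93.2, 95.5 and 86.1 CPM in GN_water libraries, against 146, 125 and 136 CPM in Control_captopril and 106, 105 and 108 CPM in Control_water libraries. No GN library reached the level of any control library, and the GN average was -0.39 ± 0.06 (adjusted p = 0.00033). Decr1, the mitochondrial dienoyl-CoA reductase, was at 239, 270 and 260 CPM in GN_captopril and 212, 197 and 195 CPM in GN_water libraries, against 339, 272 and 308 CPM in Control_captopril and 282, 270 and 285 CPM in Control_water libraries. The highest GN library, at 269.5 CPM in GN_captopril, lay just below the lowest control library, at 270.4 CPM in Control_water. Between these 2 groups the change of -0.12 ± 0.07 on the log2 scale was not called (adjusted p = 0.31). In the GN average Decr1 fell by 0.36 ± 0.05 (adjusted p = 0.0002), and its peroxisomal counterpart Decr2 fell by 0.35 ± 0.04 (adjusted p = 3e-05). Ech1, a dienoyl-CoA isomerase found in both organelles, was at 530, 566 and 569 CPM in GN_captopril and 449, 441 and 448 CPM in GN_water libraries, against 616, 563 and 578 CPM in Control_captopril and 586, 623 and 608 CPM in Control_water libraries. The GN_water libraries were lowest, GN_captopril and Control_captopril overlapped, and Ech1 fell by 0.26 ± 0.04 (adjusted p = 0.00015). Of the remaining isomerases Eci3 fell by 0.22 and Eci2 changed by -0.10 ± 0.06 without a call (adjusted p = 0.20). Both have fractional counts in all 12 libraries, so shared reads may have been split by the counting.

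All 7 genes of the peroxisomal beta-oxidation core fell, by 0.13 to 0.68 on the log2 scale. Acaa1b, a peroxisomal thiolase of rodents, was at 306, 339 and 339 CPM in GN_captopril and 253, 201 and 169 CPM in GN_water libraries, against 301, 370 and 325 CPM in Control_captopril and 555, 494 and 523 CPM in Control_water libraries. Both matched pairs separated without overlap, with a GN average of -0.68 ± 0.08 (adjusted p = 6.1e-05), while its paralog Acaa1a fell by 0.13 ± 0.04 (adjusted p = 0.012). Reads shared between these 2 paralogs may have been split by the counting, since both have fractional counts. Ehhadh, the L-bifunctional enzyme and a known PPARA target, was at 874, 903 and 901 CPM in GN_captopril and 605, 521 and 528 CPM in GN_water libraries, against 1283, 918 and 978 CPM in Control_captopril and 1156, 893 and 854 CPM in Control_water libraries; it fell by 0.53 ± 0.09 (adjusted p = 0.00064). Only the GN_water libraries lay below every control library. Hsd17b4, the D-bifunctional enzyme, was at 261, 270 and 257 CPM in GN_captopril and 235, 221 and 197 CPM in GN_water libraries, against 310, 280 and 278 CPM in Control_captopril and 327, 290 and 294 CPM in Control_water libraries, so that no GN library reached a control library, and it fell by 0.31 ± 0.05 (adjusted p = 0.00051). The oxidases of branched-chain substrates, Acox3 and Acox2, fell by 0.24 and 0.23, and Scp2, which holds a thiolase and a lipid carrier, fell by 0.19.

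Pex11a, which promotes peroxisome division, fell by 0.34 ± 0.06 on the log2 scale in the GN average, and the importer Abcd3 and the alpha-oxidation enzyme Phyh fell by 0.27 and 0.29. In GN_water against Control_captopril, Pex11a and Abcd3 changed by -0.69 and -0.59. In GN_captopril against Control_water they changed by 0.01 and 0.04 and were not called. Of the carnitine acyltransferases that export shortened chains, Crat fell by 0.15 ± 0.04, and Crot changed by -0.10 ± 0.07 and was not called (adjusted p = 0.35).

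The thioesterases, which release free fatty acids from coenzyme A, all fell, by 0.31 to 0.58 on the log2 scale. Acot1, Acot4 and Acot3 lie near each other on chromosome 12, and Acsm2 and Acsm3, medium-chain acyl-CoA synthetases, lie on chromosome 7, both positions in the RefSeq annotation of GRCm38.p6. The bases just upstream of their annotated starts are shown because these nearby genes differed from each other in the comparisons below; capitals mark the single AGGTCA half-site of nuclear receptors found in them, read on the opposite strand. The windows are chr12:84009252-84009489 (Acot1), chr12:84038129-84038378 (Acot4), chr12:84051894-84052143 (Acot3), chr7:119760673-119760882 (Acsm3) and chr7:119554090-119554339 (Acsm2), all on the plus strand; that of Acot4 lies within the span of its gene record, ahead of the start used.
Acot1: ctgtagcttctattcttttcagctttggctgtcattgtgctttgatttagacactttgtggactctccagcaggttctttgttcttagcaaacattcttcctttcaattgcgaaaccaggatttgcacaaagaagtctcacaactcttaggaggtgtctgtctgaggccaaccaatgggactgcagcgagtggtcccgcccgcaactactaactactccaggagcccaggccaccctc
Acot4: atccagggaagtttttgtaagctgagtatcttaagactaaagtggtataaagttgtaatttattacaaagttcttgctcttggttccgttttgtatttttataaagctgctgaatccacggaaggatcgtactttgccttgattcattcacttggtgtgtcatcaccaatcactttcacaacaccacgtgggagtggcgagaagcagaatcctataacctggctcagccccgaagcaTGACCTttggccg
Acot3: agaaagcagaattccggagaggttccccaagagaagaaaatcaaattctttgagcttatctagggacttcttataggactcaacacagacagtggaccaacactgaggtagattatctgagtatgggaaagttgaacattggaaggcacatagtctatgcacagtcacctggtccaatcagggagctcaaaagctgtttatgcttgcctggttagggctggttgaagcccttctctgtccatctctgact
Acsm3: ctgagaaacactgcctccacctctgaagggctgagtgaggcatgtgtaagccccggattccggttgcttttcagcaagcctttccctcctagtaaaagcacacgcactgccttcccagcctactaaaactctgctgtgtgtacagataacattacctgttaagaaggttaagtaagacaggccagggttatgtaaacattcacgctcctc
Acsm2: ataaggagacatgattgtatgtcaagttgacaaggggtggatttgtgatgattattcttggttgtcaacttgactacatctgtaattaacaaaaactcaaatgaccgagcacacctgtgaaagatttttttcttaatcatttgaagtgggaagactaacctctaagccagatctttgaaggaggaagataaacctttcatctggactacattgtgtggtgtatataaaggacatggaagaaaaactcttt
In global alignments the upstream stretches of the 3 thioesterases shared 42.4% to 46.3% of alignment columns, and Acsm3 and Acsm2 shared 45.2%. No unrelated stretches were aligned for comparison, so these values do not show whether the stretches are alike. Across the 41 RefSeq windows of 36 members, each running 250 bases before to 50 after a start and searched on both strands, AGGTCA was found in 9 (22.0%), in 8 genes, against 16.3% of all 32851 windows. The textbook PPARA element, AGGTCA repeated after 1 spacer base, was in 0 member windows and in 13 of all windows (0.0396%), and the androgen receptor palindrome, AGAACA and TGTTCT with 3 bases between them, in 0 member windows and in 3 of all (0.00913%). Only exact matches were counted, and looser forms were not searched. With exact matches this rare over all windows, 0 among 41 member windows cannot show that the members lack such elements. Decr1, Acaa2, Hsd17b4 and Crat had no window.

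Acot1, a cytosolic thioesterase, was at 55.0, 75.8 and 61.6 CPM in GN_captopril and 96.2, 83.7 and 88.5 CPM in GN_water libraries, against 141, 115 and 126 CPM in Control_captopril and 101, 86.6 and 85.8 CPM in Control_water libraries. Within each matched pair the GN libraries were all lower, and the GN average was -0.51 ± 0.08 (adjusted p = 0.00033). Acot4, a peroxisomal enzyme, was at 51.1, 46.8 and 49.1 CPM in GN_captopril and 50.1, 52.4 and 50.2 CPM in GN_water libraries, against 71.9, 73.0 and 70.7 CPM in Control_captopril and 62.9, 61.03 and 58.5 CPM in Control_water libraries. The 6 GN libraries lay below all 6 controls, with a fall of 0.40 ± 0.04 on the log2 scale (adjusted p = 5.2e-06). Acot3, also peroxisomal, was at 14.2, 12.4 and 14.3 CPM in GN_captopril and 41.2, 37.7 and 34.5 CPM in GN_water libraries, against 77.7, 62.3 and 74.9 CPM in Control_captopril and 18.4, 15.04 and 14.7 CPM in Control_water libraries. Its differences between libraries with Y-linked transcripts and with Xist exceeded those between GN and control, and its GN average was -0.58 ± 0.08 (adjusted p = 0.00011). Counts of these 3 close paralogs include fractional values, so the split of shared reads between them is uncertain. Acot12, a cytosolic acetyl-CoA hydrolase, was at 187, 251 and 205 CPM in GN_captopril and 92.9, 81.5 and 77.2 CPM in GN_water libraries, against 161, 125 and 144 CPM in Control_captopril and 204, 180 and 191 CPM in Control_water libraries; GN_water libraries lay below all others, GN_captopril and Control_water overlapped, and the GN average was -0.31 ± 0.08 (adjusted p = 0.011).

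Of the activating enzymes, Acsl1, the long-chain acyl-CoA synthetase at the entry to oxidation, was at 217, 199 and 222 CPM in GN_captopril and 500, 541 and 551 CPM in GN_water libraries, against 752, 695 and 785 CPM in Control_captopril and 353, 321 and 297 CPM in Control_water libraries. Both matched pairs separated without overlap, and the GN average was -0.55 ± 0.05 (adjusted p = 6.6e-06). Acsm2 and Acsm3 changed by -0.11 ± 0.05 (adjusted p = 0.09) and 0.10 ± 0.11 (adjusted p = 0.54) and were not called. Pdk4, the kinase that turns down pyruvate oxidation when fatty acids are burned, was at 25.6, 14.7 and 22.3 CPM in GN_captopril and 27.6, 30.5 and 24.01 CPM in GN_water libraries, against 44.8, 23.3 and 68.4 CPM in Control_captopril and 41.4, 18.6 and 22.2 CPM in Control_water libraries. Its control libraries spanned a wider range than the GN libraries, and the change of -0.57 ± 0.25 was not called (adjusted p = 0.099).

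**Figure D2:**
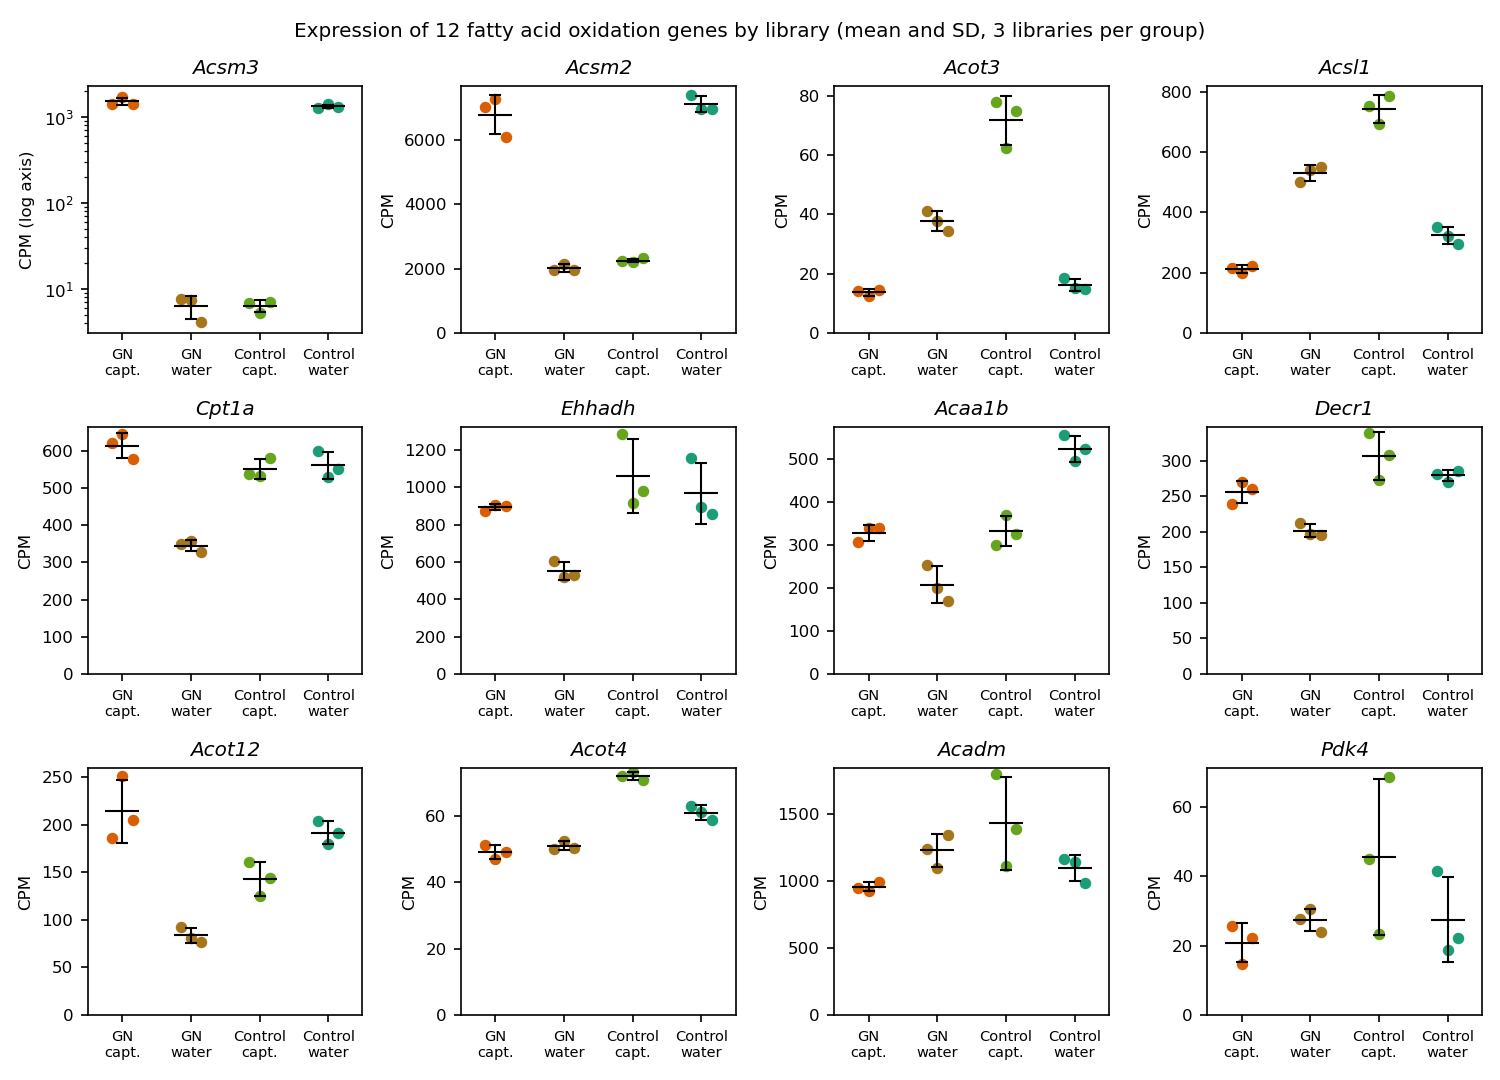
Normalised CPM of 12 genes in each library, with the 4 groups on the x axis; points are libraries, and the horizontal mark and bar are the mean and SD of 3 libraries (the Acsm3 axis is logarithmic, the others start at 0). Cpt1a and Acot12 are lowest in GN_water, Acot4 is lower in both GN groups, and Acsm3, Acsm2, Acot3 and Acsl1 divide by the sex-linked transcripts of the libraries.

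The matched pairs showed falls of different size. In GN_water against Control_captopril, 36 of 40 genes fell and none rose by edgeR's quasi-likelihood test, against 13.2% of all genes lower and 16.9% higher, with a median of -0.40 against 0.00 over all genes; 15 of 19 mitochondrial, 15 of 15 peroxisomal and 6 of 6 shared or cytosolic genes fell, with medians of -0.37, -0.47 and -0.44. In GN_captopril against Control_water, 10 fell and none rose, against 5.02% lower and 7.05% higher over all genes, with a median of -0.12 against -0.02; these were 5 mitochondrial (Acadvl, Acads, Hadh, Hadha and Etfb), 3 peroxisomal (Acaa1b, Acot4 and Phyh) and 2 others (Acsl1 and Acot1). None of the 40 was higher at an unadjusted p under 0.05 in either pair, and limma and DESeq2 called 0 higher. All 10 had also fallen in the first pair, which makes 25% of the members lower in both pairs, against 1.72% of all genes; Acadm, Acsm2, Acsm3 and Pdk4 were called in neither. The count of 10 was less firm than the 36: it was 5 without Control_water replicate 2, and 6 without either Control_water replicate 3 or GN_captopril replicate 1. It was 4 without GN_captopril replicate 3 and Control_captopril replicate 3, the libraries with the highest sums of 14 adrenal cortex markers, at 256 and 483 CPM against at most 154 CPM in the other 10; Cyp11b1, which defines adrenal cortex, was at 0 in all Control_water libraries.

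**Figure D3:**
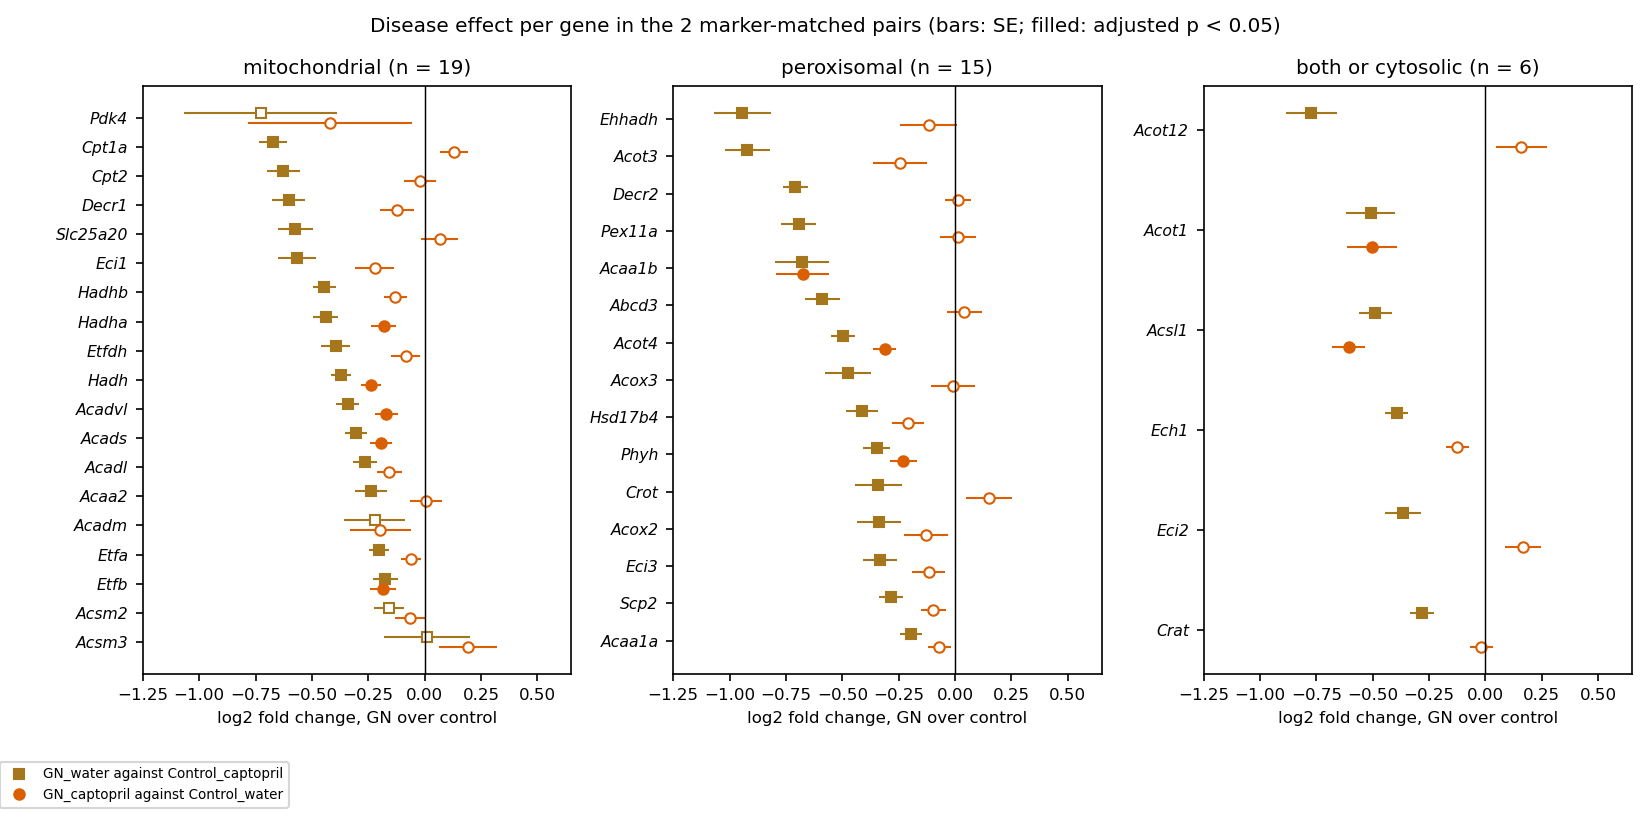
Log2 fold change of each gene, GN over control, in the 2 marker-matched pairs, in panels for mitochondrial, peroxisomal and shared or cytosolic genes; squares are GN_water against Control_captopril, circles are GN_captopril against Control_water, bars are standard errors and filled points have an adjusted p below 0.05. Squares lie left of circles for 38 of the 40 genes, most widely for Acot12, Ehhadh and Cpt1a, and the symbols nearly coincide for Acaa1b, Acot1 and Etfb.

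For 38 of 40 genes (95%) the signed log2 fold change was lower in GN_water against Control_captopril than in GN_captopril against Control_water, which held for 44.2% of all genes, whether or not a gene fell; Acsm3 is among the 38 with values of 0.01 and 0.19. The difference between the pairs, GN_water pair minus GN_captopril pair, was called lower for 14 genes and higher for none by edgeR, against 3.17% and 3.34% of all genes, with none higher at an unadjusted p under 0.05 and none by limma or DESeq2; it is the captopril label averaged over disease, with its sign turned and doubled, so that the same 14 were higher under that label. Since Ren1 ran against the treatment labels among controls, this reading as a captopril effect rests on control labels that Ren1 did not follow. The pair difference itself uses the groups only as named. Because the GN_water pair has Xist and the GN_captopril pair Y-linked transcripts, a disease effect that differs with these transcripts cannot be told apart from it. The count was 9 without Control_water replicate 2 and 8 without the 2 libraries with high adrenal markers. The genes were 5 mitochondrial (Cpt1a, Cpt2, Slc25a20, Decr1 and Hadhb), 5 peroxisomal (Ehhadh, Decr2, Acot3, Abcd3 and Pex11a) and 4 others (Acot12, Eci2, Ech1 and Crat), and all 3 carnitine shuttle genes were among them. Acot12 fell by 0.77 ± 0.11 on the log2 scale in the GN_water pair (adjusted p = 0.00025) and changed by 0.16 ± 0.11 in the GN_captopril pair (adjusted p = 0.39), a difference of -0.93 ± 0.16 (adjusted p = 0.0053). Ehhadh fell by 0.94 ± 0.13 in the GN_water pair and changed by -0.12 ± 0.13 in the other, a difference of -0.83 ± 0.18 (adjusted p = 0.017). Cpt1a fell by 0.67 ± 0.06 and changed by 0.13 ± 0.06, a difference of -0.80 ± 0.09 (adjusted p = 0.00055). Decr2, at 79.3, 75.0 and 72.7 CPM in GN_captopril against 78.5, 74.1 and 72.2 CPM in Control_water libraries, overlapped in that pair. In the other it was at 72.4, 71.4 and 66.3 CPM in GN_water against 115, 111 and 117 CPM in Control_captopril libraries, and the difference was -0.72 ± 0.08 (adjusted p = 0.00053). For Acaa1b the pairs gave -0.68 ± 0.12 each, and for Acot1 -0.51 ± 0.11 and -0.50 ± 0.11. The pair difference was not particular to the 40 genes, whose median was -0.25. It was called lower for 5 and higher for 1 of 20 markers of proximal tubule segments 1 and 2 (median -0.26). Of 40 other peroxisome genes 11 were called lower and 0 higher (median -0.23). Of 14 segment 3 markers 0 were called (median 0.01). Of 28 leukocyte markers 2 were called higher and 0 lower (median 0.87). The part of cell composition in this difference was not tested.

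Libraries with Y-linked transcripts (GN_captopril and Control_water) exceeded those with Xist (GN_water and Control_captopril) in 24 of 40 genes and were below them in 11, against 23.6% and 27.1% of all genes, on an average that is the interaction of the disease and treatment labels on a halved scale. By compartment 9 mitochondrial genes were higher and 6 lower, 11 peroxisomal higher and 3 lower, and 4 of the others higher and 2 lower; medians were 0.11, 0.28 and 0.16, against -0.04 over all genes. Acsm3 was at 1416, 1682 and 1412 CPM in GN_captopril and 1261, 1392 and 1295 CPM in Control_water libraries, against 7.60, 7.44 and 4.15 CPM in GN_water and 6.91, 5.29 and 7.03 CPM in Control_captopril libraries. That is a 219-fold difference, with a log2 value of 7.77 ± 0.13 (adjusted p = 5.6e-14). Acsm2 was at 7014, 7262 and 6099 CPM in GN_captopril and 7394, 6970 and 6953 CPM in Control_water libraries, against 1958, 2148 and 1954 CPM in GN_water and 2231, 2210 and 2317 CPM in Control_captopril libraries, a 3.26-fold difference (log2 1.70 ± 0.05, adjusted p = 1.1e-11). Acsm2 and Acsm3 have fractional counts in 6 libraries each, so reads shared with other genes may have been split by the counting. On the other side, Acot3 was lower in libraries with Y-linked transcripts by 1.81 ± 0.08 on the log2 scale (3.51-fold, adjusted p = 7.7e-10) and Acsl1 by 1.26 ± 0.05 (2.40-fold, adjusted p = 4.9e-10). Crot, Acox3, Acot12, Phyh, Acads, Acaa1b and Eci3 were higher there by 0.61 to 1.21 on the log2 scale. The genes near Acot3 moved less, Acot1 by -0.48 and Acot4 by -0.15. Hadha and Hadhb were lower by 0.50 and 0.45 and Acaa2 by 0.59, and Acadvl, Decr1, Etfb, Pex11a and Pdk4 were not called. In this contrast 7 of 14 markers of proximal tubule segment 3 were higher, 4 were lower and 3 were not called, so the list went both ways. Their sum, with none of them at 0, was 15460 to 17450 CPM in GN_captopril and 15270 to 15790 CPM in Control_water libraries, against 6095 to 7055 CPM in GN_water and 6953 to 7649 CPM in Control_captopril libraries. Sex-linked transcripts, Ren1 level and the interaction of the labels cannot be told apart in this contrast.

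**Figure D4:**
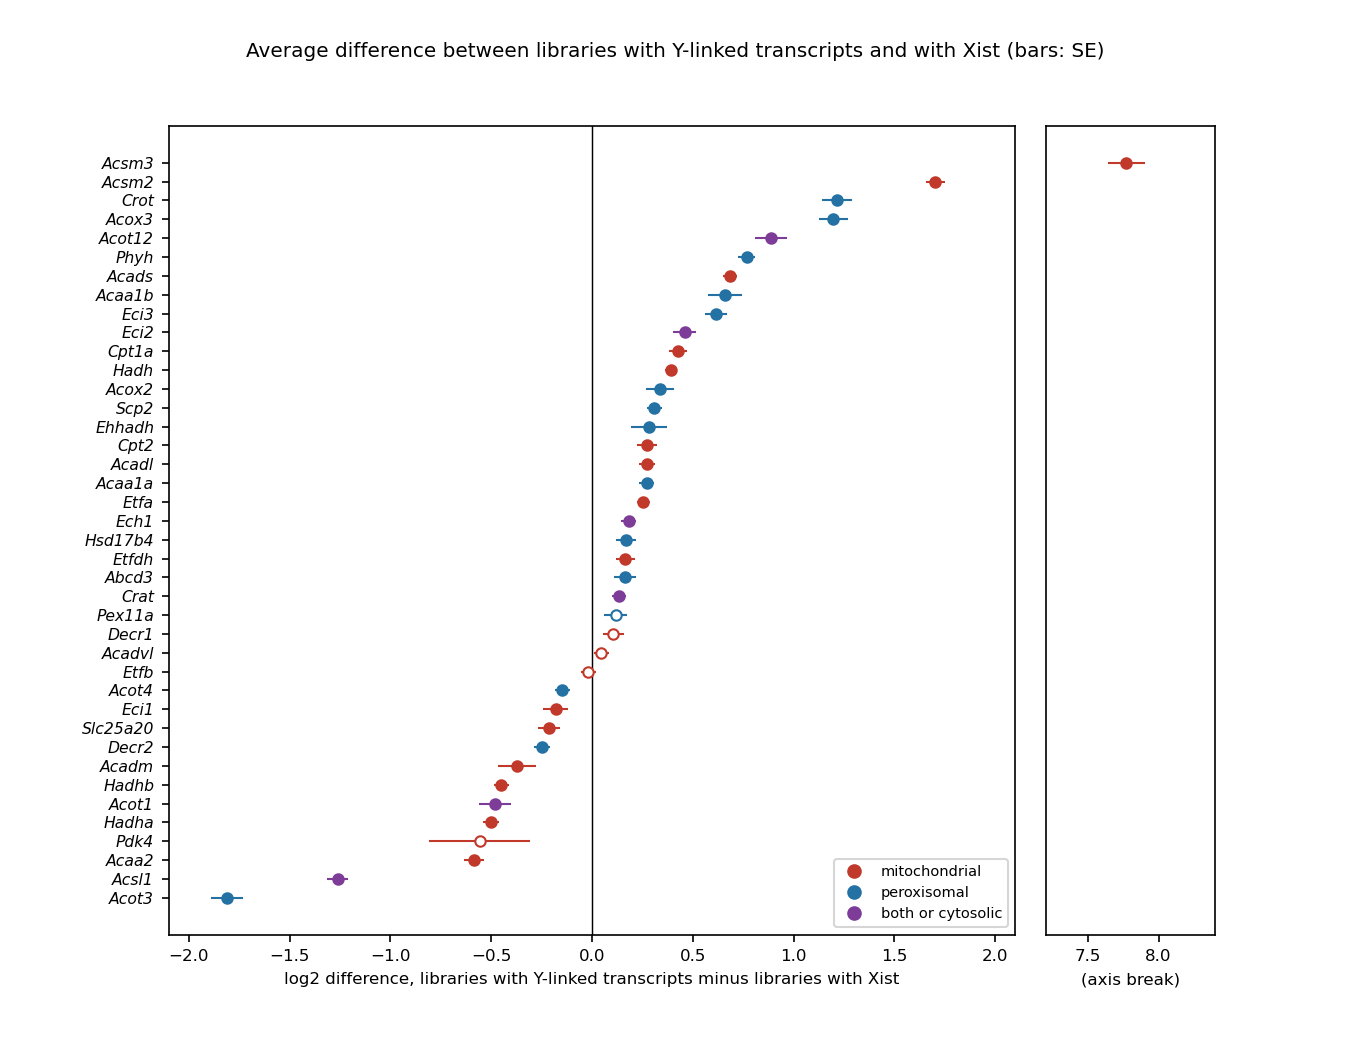
Average log2 difference of each gene, libraries with Y-linked transcripts minus libraries with Xist, on the x axis (broken for Acsm3); points are estimates, bars are standard errors, colours give the compartment and filled points have an adjusted p below 0.05. Acsm3 and Acsm2 stand highest, at 7.77 and 1.70, and Acot3 and Acsl1 lowest, at -1.81 and -1.26.

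The order of levels followed the same divide. Per kilobase of GENCODE exon, Acsm2 led in Control_water at 957 CPM, followed by Etfb at 442 CPM and Phyh at 376 CPM, and Acot3 was last at 4.67 CPM. In GN_water the leaders were Etfb at 395 CPM, Acadm at 314 CPM, Acaa2 at 298 CPM and Acsm2 at 272 CPM. The members together took 2.02% ± 0.082 of all assigned reads in GN_captopril and 1.31% ± 0.018 in GN_water libraries, against 1.60% ± 0.070 in Control_captopril and 2.06% ± 0.059 in Control_water libraries (SD, n = 3 each). Acsm2 and Acsm3 weigh heavily in this share. Their means were 6948 and 1410 CPM in libraries with Y-linked transcripts, against 2136 and 6.40 CPM in libraries with Xist. The share without these genes was not computed.

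Comparisons across the sex-linked divide mix it with the labels. In GN_water against Control_water 29 members fell and 5 rose (Acsl1, Hadha, Hadhb, Acaa2 and Acot3), against 23.9% and 27.4% of all genes, and 3 rose without GN_water replicate 1 or replicate 2. GN_captopril against Control_captopril gave 16 lower and 11 higher, against 19.3% and 20.5%. GN_captopril against GN_water gave 27 higher and 7 lower, against 19.6% and 25.5%, and Control_captopril against Control_water gave 12 higher and 14 lower, against 15.4% and 17%. Acsl1, for example, was lower in GN_captopril than in GN_water libraries by 1.32 ± 0.07 on the log2 scale (adjusted p = 2.2e-08) and higher in Control_captopril than in Control_water libraries by 1.20 ± 0.07 (adjusted p = 6.3e-08).

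Lists of genes around the pathway also held more falls than rises. In the GN average 23 of 33 tested genes of a list of other PPARA targets and ketone body enzymes fell and 2 rose, with a median of -0.25; 17 of 40 other peroxisome genes fell, with a median of -0.13; 11 of 24 genes of uptake, activation and storage fell and 1 rose; and 9 of 21 regulators fell and 1 rose. Over all genes tested 14.6% fell and 16.3% rose, with a median of -0.01. Ppara was at 154 to 175 CPM in GN_captopril and 108 to 123 CPM in GN_water libraries, against 162 to 229 CPM in Control_captopril and 145 to 162 CPM in Control_water libraries. It fell by 0.69 ± 0.11 on the log2 scale in the GN_water pair and changed by 0.09 ± 0.11 in the GN_captopril pair, a difference of -0.78 ± 0.15 (adjusted p = 0.011). Ppargc1a, a coactivator of mitochondrial genes, fell by 0.39 in each pair (adjusted p = 0.0059 in the GN_water pair and 0.019 in the GN_captopril pair), as did catalase (Cat), by 0.57 and 0.33. Hnf4a and Sirt3, a transcription factor and a mitochondrial deacetylase among the regulators, fell by 0.32 and 0.23 on the log2 scale in the GN average. Vnn1, a PPARA target, had the smallest adjusted p of its list, with a GN average of -0.72 ± 0.07 (adjusted p = 6.5e-06), and was followed by Acad11 (-0.41) and Acot2 (-0.50). The acyl-CoA synthetases Acsm5, Acsm1 and Acss2 fell by 0.33, 0.56 and 0.23, and the peroxisomal membrane genes Pxmp4 and Pxmp2 by 0.28 and 0.37. The fatty acid transporter Cd36 (0.11 ± 0.09, adjusted p = 0.40) and the lipid droplet gene Plin2 (-0.11 ± 0.05, adjusted p = 0.13) were not called in the GN average.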

How the data were processed

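Kidney cortex RNA of 12 libraries was analysed, 3 in each of 4 labelled groups. Per the labels' protocols libraries were stranded mRNA-seq, and per the submitters' processing notes Bowtie2, Partek and the mm10 build were used; no version is given in the sources used here. The authors deposited a table of estimated counts per gene symbol, of which 10.8% of entries are not whole (tolerance 0.001), 15 members included, and a table of RPKM, also made by the authors. After rounding and filterByExpr (minimum count 10, minimum total 15), TMM factors were computed, and edgeR 4.0.16 in R 4.3.3 (glmQLFit, glmQLFTest) modelled all 12 libraries together with a separate mean for each of the 4 groups. Adjustment was by Benjamini-Hochberg over the 14618 genes tested, at 0.05. The edgeR, DESeq2 and limma fits of the GN average were tested on data simulated without sex-linked or treatment differences. The other comparisons were not simulated. CPM values are TMM-scaled. Depth was 14173432 to 22842783 counts per library. All pairs of replicates differed by more than sampling noise (chi-square per degree of freedom 5.16 to 14.1).

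Alternatives were DESeq2 1.42.0 and its size factors, no filter, limma 3.58.1 on log2(RPKM + 0.1) of the deposited RPKM, fits of only the groups compared, a replicate block, and each library left out. RPKM served only within genes, since levels between genes used union exon lengths of GENCODE M21 (the RefSeq table gives gene spans). Sequences are from RefSeq (GRCm38.p6), 36 of 40 members matched, each stretch ending before any annotated exon or gene start inside it.

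The members and lists were chosen with earlier results of these data known. Values per library are given for the 4 called members of each compartment with the largest change in the GN average, the 4 with the largest interaction and the 4 with the largest pair difference, and 6 chosen by role. Of each list around the pathway the 3 genes with the smallest adjusted p are named, and 7 were chosen by role, some of which are not reported here.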

Additional observations from a re-analysis of the deposited data

Results flagged for a closer look

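Single outlying libraries were not tested within groups of 3, and what is listed here are differences between effects, for the 19 members given per library; the other called members are in the counts above. Among these 19, the disease effect differed between the GN_water pair and the GN_captopril pair (first minus second, log2, edgeR's adjusted p below 0.05) for Acot12 by -0.93, Ehhadh by -0.83, Cpt1a by -0.80, Decr2 by -0.72, Acot3 by -0.68, Cpt2 by -0.61, Decr1 by -0.48 and Ech1 by -0.27. An equal shift with the sex-linked transcripts cancels in this contrast. However, the GN_water pair holds only libraries with Xist and the GN_captopril pair only libraries with Y-linked transcripts. A disease effect that differs with these transcripts therefore cannot be told apart from the pair difference.

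Among the same 19 members, the interaction of the labels, the disease effect under the captopril label minus that under the water label, was negative for Acot3 (-3.62), Acsl1 (-2.52), Hadha (-1.001), Acot1 (-0.96), Acadm (-0.74), Decr2 (-0.50), Eci1 (-0.36) and Acot4 (-0.30). It was positive for Hsd17b4 (0.34), Ech1 (0.36), Cpt2 (0.55), Ehhadh (0.57), Cpt1a (0.86), Acaa1b (1.32), Acot12 (1.78), Acsm2 (3.41) and Acsm3 (15.5). Each is a log2 value past an adjusted p of 0.05, and each cannot be told apart from the difference between libraries with Y-linked transcripts and with Xist.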

How the results depend on the processing

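The 33 members lower in the GN average were 33 with DESeq2, its size factors or no filter, 32 without the libraries high in adrenal markers, 26 with limma on RPKM, and 32 to 35 with single libraries left out. Counts that moved most were those of GN_captopril against Control_water (10 lower): 5 when only these groups were fitted, 5 with limma on RPKM, 4 without the 2 adrenal libraries, and 5 to 10 with single libraries left out. The pair difference, and with it the captopril average (14 each), gave 8 without the adrenal libraries and 9 to 16 with single libraries left out. Control_captopril against Control_water (14 lower) gave 9 with limma on RPKM, and GN_water against Control_water (5 higher) gave 3 to 5 with single libraries left out. The cause was not tested. Of 342 values of the GN average for the 19 members given per library, each under 18 alternatives, 337 kept their direction and side of the threshold and none reversed; Acot12 lost its call with limma (-0.23, adjusted p = 0.060), and Acsm2, Acadm and Pdk4 gained one when single libraries were left out. Counting the 6 shared or cytosolic genes as mitochondrial or as peroxisomal gave 76% and 90.5% lower.

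Whether title numbers pair the libraries was not settled. Same-number correlations of deviations ran from -0.203 to 0.249, and 6 of 18 were over 0.1. Other-number correlations ran from -0.246 to 0.268, and 7 of 36 were over 0.1. With the replicate block, 34 members were lower in the GN average, 36 in the GN_water pair and 11 in the GN_captopril pair. With 3 libraries per group, small changes such as those of Acsm2 and Acaa2 lie near what these data can show.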
